A study of Mus musculus with 16 samples.

Results

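Messenger RNAs of 9 enzymes of the tricarboxylic acid (TCA) cycle were followed through 3 kinds of RNA from mouse gastrocnemius, the large calf muscle. The genes were Cs, Idh3a, Idh3b, Idh3g, Ogdh, Dlst, Suclg1, Fh1 and Mdh2, taken as every non-control array probe that carried one of these gene names. This gave 12 of the 55681 probes on the array and 9 of its 34650 gene names, and all 12 probes passed the filter on dim signals described below. The set was chosen by measured values: the members were selected on the Het minus WT differences in polysome loading, polysome signal and whole-muscle signal on these arrays. Those differences are therefore described here without a test.

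The mice were male C57BL6 littermates of 8 to 16 weeks, 3 wild-type (WT, Eif6+/+) and 3 with 1 functional Eif6 copy (Het, Eif6+/-). Eif6 encodes a translation factor that binds the large ribosomal subunit, and no treatment was given. Each genotype contributed 3 arrays of whole-muscle total RNA, 3 arrays of pooled polysome fractions and 2 arrays of monosome RNA, 16 arrays in all. The monosome arrays came from WT mice 1 and 2 and Het mice 1 and 3, so 4 mice had all 3 kinds of RNA. Polysome fractions of a sucrose gradient hold transcripts that carry several ribosomes, and the monosome fraction holds transcripts with a single ribosome or particles of like size. The labels give no tissue restriction for the Eif6 allele, and no cell type was purified. A lower signal can therefore come from fewer cells of a type or from less RNA per cell, and these cannot be told apart.

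The cycle runs in the mitochondrial matrix, where it oxidises acetyl groups from sugars and fats to carbon dioxide and passes the electrons to the respiratory chain. All of its enzymes are encoded in the nucleus, translated in the cytosol and imported, so the traffic of their mRNAs on ribosomes is one step in setting their amount. In muscle the pathway is best known for supplying the respiratory chain during sustained contraction. Cs starts the cycle by joining acetyl-CoA to oxaloacetate. Idh3a, Idh3b and Idh3g encode the subunits of the NAD-dependent isocitrate dehydrogenase, of which the Idh3a product is catalytic. Ogdh and Dlst encode the first and second components of the 2-oxoglutarate dehydrogenase complex. Suclg1 encodes the alpha subunit of succinyl-CoA ligase, which is shared by the ATP- and GTP-forming enzymes. Fh1 encodes fumarase, and Mdh2 encodes the mitochondrial malate dehydrogenase that closes the cycle.

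Each probe is a single-stranded 60-base sequence, and its signal reports one stretch of a transcript. The probe sequences in the array files are printed here for 3 probes because they moved in opposite directions on 2 arrays that stand apart. Compared with the same fraction of WT mouse 1, those of Idh3b and Suclg1 were higher on WT polysome 2 and WT monosome 2, and that of Fh1 was lower. A reading frame free of stop codons runs through each of them, and also through the Ogdh and Dlst probes. In a stretch of 60 bases such a frame does not show that the stretch is coding. The first lies at base 802 of the Idh3b transcript, the second at base 904 of Suclg1 and the third at base 1365 of Fh1, where it spans an intron (2431 bases between its outer genomic ends). All bases are in lower case, because no base of these is singled out.

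Idh3b A_51_P130110: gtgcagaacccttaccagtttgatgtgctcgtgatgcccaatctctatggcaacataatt

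Suclg1 A_51_P491227: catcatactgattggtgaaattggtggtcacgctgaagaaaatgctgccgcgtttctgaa

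Fh1 A_51_P359333: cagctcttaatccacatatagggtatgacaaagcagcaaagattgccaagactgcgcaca

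The Ogdh gene had 3 probes, of which the brightest and the next one start 72 bases apart on the transcript (bases 4104 and 4176) and gave different results. The last 30 bases of each are shown, with a run of A at the 3′ end in capitals. The brightest probe ends in a run of 6 A, as do 1.19% of the 55681 probes.

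Ogdh A_55_P2006281: acacctgatttatttattttggttAAAAAA

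Ogdh A_55_P2006280: cggcttgacccataaactaagttatcatgg

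Array signals are log2 values of the scanner's processed intensity, quantile-normalized over all 16 arrays. The 75th percentile of the processed signal ranged from 12.7 to 150 scanner units between arrays, and 23.5% to 45.9% of spots were well above background, a call of the scanner software. Probes entered the tests when all arrays of some group, whichever it was, showed them well above background. This left 20219 probes, 9132 of them well above background on all 16 arrays. The brightest probe of all 9 genes was well above background on all 16 arrays. As a check of genotype, Eif6 differed between Het and WT by -0.93 in whole muscle, -1.32 in polysomes and -1.82 in monosomes (log2, limma adjusted p values of 0.613, 0.515 and 0.0450), and the genotypes did not overlap in any of the 3. Markers of fast muscle fibres (Acta1, Ckm, Myh4, Tnnt3 and Pvalb) were all well above background on every array, as the labelled tissue would have them. Arrays from the second WT mouse stood apart. In 217 pairs of probes that lie 500 or more bases from each other on one transcript, 5′ signals were lower than 3′ signals by a median log2 difference between -1.63 and -1.17 on 14 arrays. The same median reached -0.23 for WT polysome 2, and for WT monosome 2 it reached 0.29. WT monosome 2 correlated with WT monosome 1 at r = 0.782, the lowest value within any group, and values without these 2 arrays are given beside the main results of the 9 genes.

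Cs (A_52_P182659, mm9 chr10:127799428-127799487) had log2 signals of 13.02, 13.54 and 13.22 in WT whole muscle and 13.58, 13.45 and 13.27 in Het whole muscle. In polysomes the values were 13.62, 12.32 and 13.74 in WT and 14.14, 14.24 and 13.81 in Het. In monosomes they were 12.64 and 11.29 in WT and 12.60 and 12.61 in Het. Whole-muscle values overlapped between genotypes. In polysomes the 3 Het arrays lay above the 3 WT arrays, by the smallest margin for WT polysome 3, and WT polysome 2 was the lowest polysome array. Monosome values were below those of every whole-muscle array in both genotypes.

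The catalytic subunit gene Idh3a (A_51_P268559, chr9:54451368-54451427) gave 11.60, 11.87 and 11.71 in WT whole muscle and 11.90, 11.92 and 11.77 in Het. Its polysome signals were 11.05, 11.16 and 11.66 in WT and 12.06, 12.40 and 12.46 in Het. Its monosome signals were 10.62 and 9.89 in WT and 10.94 and 10.71 in Het. The 6 groups fell in 3 layers, with Het polysomes on top, whole muscle and WT polysomes between, and monosomes at the bottom. WT polysome 2 was not the lowest WT polysome array for this gene.

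The other isocitrate dehydrogenase subunits shared this order only in part. Idh3b (A_51_P130110, chr2:130106776-130106835) had 11.88, 12.01 and 11.35 in WT whole muscle, 11.91, 11.71 and 11.75 in Het whole muscle, 11.33, 12.22 and 12.18 in WT polysomes and 12.81, 12.85 and 12.92 in Het polysomes. Its monosome signals were 10.36 and 11.65 in WT and 10.71 and 10.99 in Het. WT monosome 2 was thus the highest of the 4 monosome arrays and WT polysome 2 the highest WT polysome array, the opposite of Cs. Idh3g (A_51_P136729, chrX:71024358-71024417) had 12.60, 12.55 and 12.01 in WT whole muscle, 12.43, 12.23 and 12.22 in Het whole muscle, 12.58, 11.95 and 12.79 in WT polysomes and 13.21, 13.22 and 13.40 in Het polysomes. Its monosome signals of 11.69 and 11.85 in WT and 11.85 and 11.78 in Het were the most even of the 9 genes between genotypes, with means that differed by 0.05.

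For Ogdh, the brightest probe (A_55_P2006281, chr11:6256511-6256570) gave 12.19, 12.11 and 11.53 in WT whole muscle and 11.98, 11.82 and 11.75 in Het. Its polysome signals were 13.11, 12.83 and 13.12 in WT and 12.92, 13.17 and 12.95 in Het, and its monosome signals 12.33 and 13.25 in WT and 11.65 and 11.73 in Het. Polysome values of this probe overlapped between genotypes, which held for the brightest probe of no other gene. Its order of the groups was also its own, with WT monosomes (12.79 ± 0.64, SD, n = 2) above both whole-muscle groups. The second probe (A_55_P2006280) differed in both respects. Its polysome values were 12.44, 11.16 and 12.47 in WT and 12.51, 12.69 and 12.51 in Het, without overlap. Its WT monosome mean of 11.17 lay below its whole-muscle means of 11.86 in WT and 11.77 in Het. Dlst (A_51_P290139, chr12:86474710-86474769), which encodes the succinyltransferase of the same complex, had 10.56, 10.32 and 10.29 in WT whole muscle, 10.51, 10.48 and 10.31 in Het whole muscle, 10.82, 10.23 and 10.72 in WT polysomes and 11.09, 11.20 and 10.998 in Het polysomes. Its monosome signals were 9.75 and 8.79 in WT and 9.53 and 9.40 in Het, below every whole-muscle array.

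Suclg1 (A_51_P491227, chr6:73221044-73221103) spanned the widest range. Whole muscle gave 11.08, 11.25 and 10.95 in WT and 11.25, 11.18 and 10.92 in Het. Polysomes gave 9.04, 10.31 and 10.003 in WT and 11.08, 11.14 and 11.55 in Het, and monosomes 7.42 and 8.95 in WT and 8.97 and 9.01 in Het. The lowest WT polysome array was replicate 1 and not replicate 2. The WT polysome arrays lay below every whole-muscle array, whereas the Het polysome arrays lay among them or, for replicate 3, above them.

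Fh1 (A_55_P2074718, chr1:177531530-177531589) gave 10.92, 11.38 and 11.34 in WT whole muscle and 11.44, 11.37 and 11.21 in Het. In polysomes it gave 11.24, 10.02 and 11.45 in WT and 11.93, 11.90 and 11.90 in Het, and in monosomes 9.73 and 8.40 in WT and 9.88 and 9.75 in Het. The Het polysome arrays differed by less than the WT ones (SD 0.016 against 0.77, n = 3 each), and WT polysome 2 was more than 1 log2 unit below the other WT polysome arrays. Mdh2 (A_51_P384879, chr5:136266157-136266216) gave 13.99, 14.35 and 14.43 in WT whole muscle, 14.41, 14.42 and 14.39 in Het whole muscle, 14.51, 13.90 and 14.54 in WT polysomes and 14.80, 14.78 and 14.73 in Het polysomes. Its monosome signals were 12.89 and 13.31 in WT and 13.21 and 13.22 in Het, all below the lowest whole-muscle array.

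**Figure D1:**
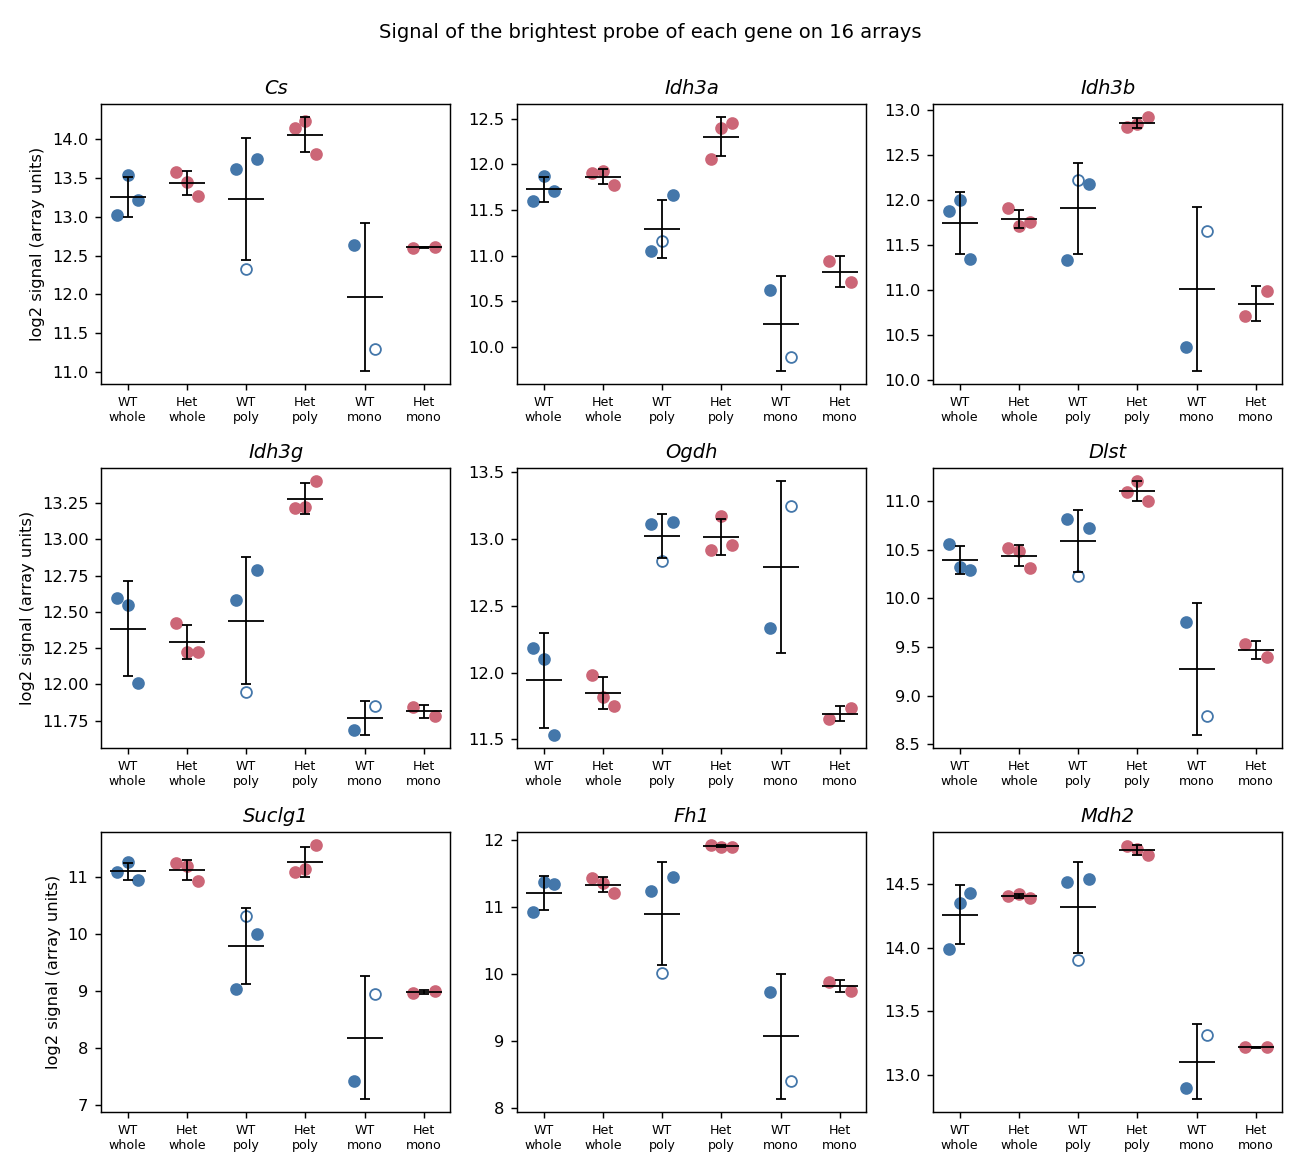
Log2 signal (vertical axes, array units, scaled separately per panel) of the brightest probe of each gene in the 6 groups of genotype and RNA kind (horizontal axes). Points are arrays (blue WT, red Het), open points are WT polysome 2 and WT monosome 2, and bars are mean ± SD (n = 3, or 2 for monosomes). Het polysomes are highest for every gene but Ogdh, for whose brightest probe both polysome groups have a mean of 13.02.

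Het polysomes had the highest mean of the 6 groups for 8 of 9 genes, each by its brightest probe. WT or Het monosomes had the lowest mean for all 9. Of the 45 pairs of groups next to each other in these orders, 26 overlapped, and the orders of WT whole muscle, Het whole muscle and, for most genes, WT polysomes should be read as ties. Het polysomes stood clear of the next group for 7 genes, and for Suclg1 they overlapped with Het whole muscle. Nothing is read from the place of Het polysomes, because the genes were chosen with these values. The share of all probes with this pattern was not counted.

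Polysome and monosome RNA were compared to ask how these transcripts stood among all others in the heavy and in the light part of the gradient, a comparison the choice of genes did not use. All 9 mRNAs had a higher normalized signal in polysomes than in monosomes, averaged over the genotypes. Quantile normalization gives every array the same distribution, so such differences are relative to the other transcripts of each RNA kind and are not amounts in the gradient. Fumarase mRNA (Fh1) differed most, with a log2 difference of 1.97 (SE 0.30, limma adjusted p = 0.00108) or 3.91-fold. Suclg1 followed with 1.93 (SE 0.31, adjusted p = 0.00123). Dlst (1.47), Idh3b (1.46), Mdh2 (1.38), Cs (1.36), Idh3a (1.26) and Idh3g (1.07) had limma adjusted p values between 0.000568 for Mdh2 and 0.00836 for Cs. The brightest Ogdh probe had the smallest difference, 0.78 (SE 0.22, adjusted p = 0.0203) or 1.71-fold, and the second Ogdh probe gave 1.09 (adjusted p = 0.0107). Calls of a higher polysome signal (limma, Benjamini-Hochberg adjusted p under 0.05) were made for 16.9% of all tested probes and for 20.6% of those well above background on all arrays, with a median difference over all tested probes of 0.20 against 1.38 for the 9 genes. For 6 of 9 genes, namely Idh3a, Idh3g, Dlst, Suclg1, Fh1 and Mdh2, all 6 polysome arrays lay above all 4 monosome arrays, against 8.72% of tested probes.

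Within single mice the difference was positive for 9 of 9 genes in WT mouse 1, Het mouse 1 and Het mouse 3, with medians of 0.98, 1.56 and 1.62. In WT mouse 2 it was positive for 8 of 9, with a median of 1.03, and Ogdh was the exception (-0.41). Idh3g was near 0 in that mouse (0.099) against 0.90, 1.37 and 1.62 in the others. Without WT polysome 2 and WT monosome 2 all 9 genes were still called, with 22.5% of tested probes. The count fell to 5 without Het mouse 1, to 6 without Het mouse 3 and to 5 with the methods' t-test, where 3.23%, 6.36% and 7.91% of tested probes were called. Monosome arrays were dimmer, with a 75th percentile of 12.7 to 36.4 scanner units against 24.1 to 106 for polysomes, and with array brightness as a term 6 of 9 were called (6.43% of tested probes), the others being Cs (0.85), Idh3g (0.79) and Ogdh (0.66). The summed signal of the fast-fibre markers was also higher in polysomes (log2 19.21 to 19.52) than in monosomes (18.63 to 19.00), with 2 of 5 called. That of the adipocyte markers (Adipoq, Plin1, Fabp4 and Cfd) was 13.03 to 14.43 against 11.93 to 12.70. Of these 4, 3 were called higher, and Plin1 went the other way (-0.41, limma adjusted p = 0.310). The part of these lists in the result was not tested.

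Against whole muscle, the monosome fraction gave a lower normalized signal for most of these mRNAs. Suclg1 was lowest, with a log2 difference of -2.52 (SE 0.31, limma adjusted p = 0.000297) or 5.74-fold lower in monosomes. Fh1 was lower by -1.84 (SE 0.30, adjusted p = 0.00206). Idh3a (-1.26), Mdh2 (-1.17), Cs (-1.06), Dlst (-1.04) and Idh3b (-0.84) also fell, with limma adjusted p values from 0.00172 for Mdh2 to 0.0410 for Idh3b. Idh3g (-0.55, adjusted p = 0.0652) and Ogdh (0.35, adjusted p = 0.231) did not pass. The 7 of 9 called lower compare with 14.2% of all tested probes, and the medians were -1.06 for the 9 genes and -0.09 for all. For 7 of 9 genes the 4 monosome arrays lay below all 6 whole-muscle arrays, against 11.5% of tested probes. This comparison shares its monosome arrays with the one before.

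In single mice the Suclg1 difference between monosomes and whole muscle was -3.66, -2.30, -2.28 and -1.92 in WT mouse 1, WT mouse 2, Het mouse 1 and Het mouse 3. Fh1 differed by -1.19, -2.98, -1.56 and -1.46 in the same order, with WT mouse 2 the lowest. Without the 2 arrays that stand apart 8 of 9 genes were called lower, with 17.1% of tested probes. Idh3b lost its call under 10 of the alternatives and Cs under 8. The count of calls was 2 without Het mouse 1 and 4 without Het mouse 3, where 1.74% and 4.27% of tested probes were called lower. Those counts rest on a single Het monosome array each. The summed fast-fibre signal was likewise lower in monosomes (18.63 to 19.00) than in whole muscle (19.30 to 19.67), with 2 of 5 called (Acta1 and Ckm), and its part in the result was not tested.

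**Figure D2:**
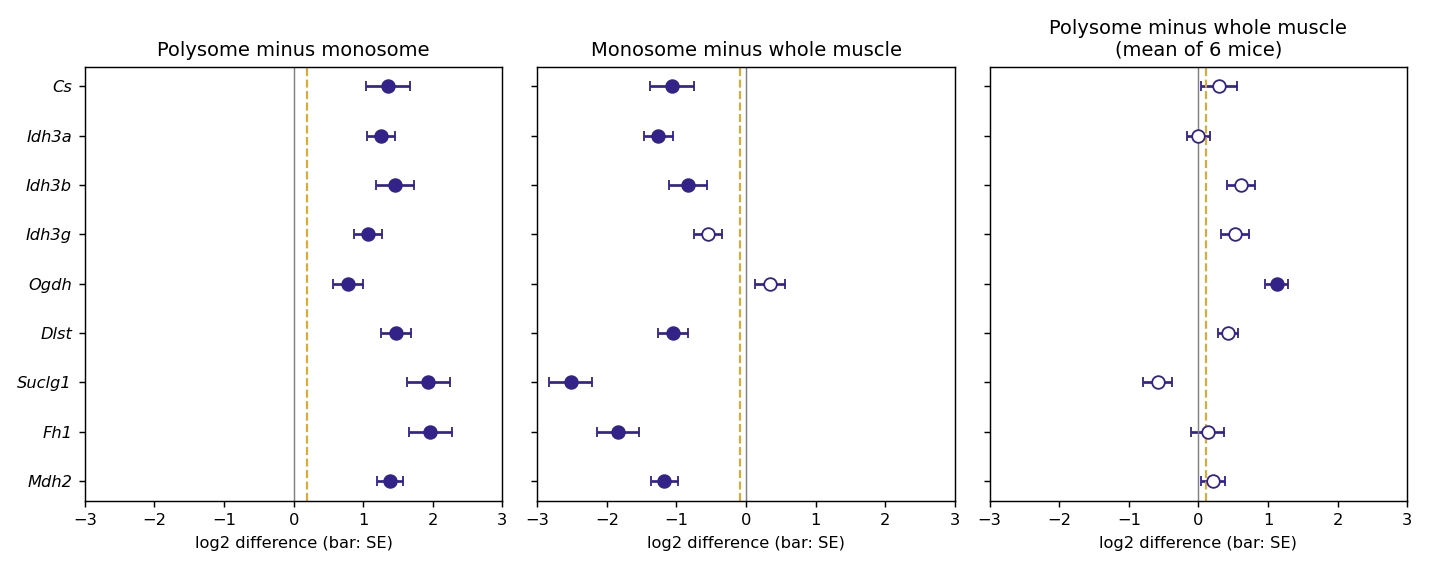
Log2 differences (horizontal axes, bars ± SE) of the brightest probe of each gene, averaged over genotypes, between polysome and monosome, monosome and whole muscle, and polysome and whole muscle. Filled points have a limma adjusted p under 0.05, and the dashed lines mark the median of all 20219 tested probes. All 9 genes are filled on the left, 7 in the middle and Ogdh alone on the right.

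Polysome loading, the normalized signal of a transcript in polysomes relative to whole muscle, was taken within each mouse as log2 polysome minus log2 whole-muscle signal. Averaged over all 6 mice, mean loading ran from -0.59 for Suclg1 to 1.12 for Ogdh. Ogdh was the only one called, with its brightest probe (SE 0.17, limma adjusted p = 0.00508), positive in 6 of 6 mice. Idh3b (0.62), Idh3g (0.52), Dlst (0.43), Cs (0.30), Mdh2 (0.21), Fh1 (0.13) and Idh3a (0.00) did not pass, and neither did Suclg1 with -0.59 (SE 0.21, adjusted p = 0.0850). One of 9 called higher is close to the background, in which 13.1% of all tested probes were called higher and 11.6% lower. Without WT polysome 2 the count was 4 of 9, with 14.3% of tested probes. Unadjusted limma p values under 0.05 were found for 4 genes above 0, against 21.5% of tested probes, and for 1 below 0, against 16.9%. Suclg1 was called lower with 75th percentile scaling (-0.84, adjusted p = 0.0114), normexp background, the authors' table and the filter on all arrays, where its limma adjusted p ranged from 0.0262 to 0.0275.

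The Ogdh value differed between its probes. The mean over its probes had a loading of 0.63 (limma adjusted p = 0.0463). The probe that starts 72 bases downstream (A_55_P2006280, chr11:6256583-6256642) had a mean loading of 0.48 (SE 0.24, limma adjusted p = 0.174). Its loading was -0.85 in WT mouse 2, against 0.64 and 0.70 in WT mice 1 and 3 and 0.56, 0.99 and 0.85 in Het mice. The most distant one (A_55_P2006277, chr11:6258910-6258969) had a mean loading of 0.28 (SE 0.21, limma adjusted p = 0.354). The last was not well above background on WT monosome 2. In monosomes against whole muscle the second probe gave -0.60 (limma adjusted p = 0.102) where the brightest gave 0.35, and the most distant is not given because of that array. Over the 16 arrays the brightest probe correlated with the second at r = 0.391 and with the most distant at 0.0561, whereas the second and the most distant correlated at 0.823, values that include WT monosome 2. On WT monosome 2 the brightest probe had its highest signal of all arrays (13.25) and the other probes their lowest (10.78 and 4.02). The probes of Fh1 did not diverge in this way (r = 0.987). The second Fh1 probe (A_51_P359333, chr1:177531659-177534089) gave 2.20 for polysome against monosome and -2.28 for monosome against whole muscle, and was called in both.

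**Figure D3:**
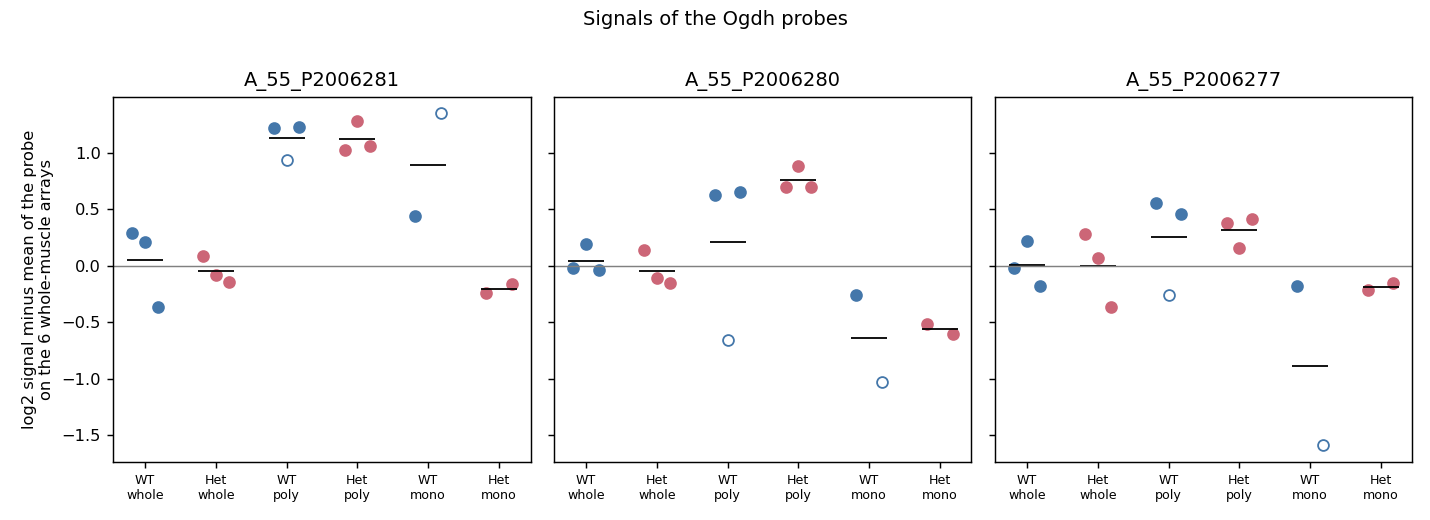
Log2 signal of the Ogdh probes on 16 arrays, each minus its own mean on the 6 whole-muscle arrays (vertical axis), in the 6 groups (horizontal axes). Points are arrays (blue WT, red Het, open WT polysome 2 and WT monosome 2) and bars are group means. On WT monosome 2 the brightest probe, at the left, is far above 0 and the others are below it.

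In monosome RNA alone, a test that the choice of genes left free, 0 of 9 genes differed between genotypes by limma after adjustment, against 0.396% of tested probes called higher and 0.104% called lower in Het. At an unadjusted p under 0.05 there was 1 lower in Het, against 13.2% of tested probes, and 0 higher, against 19.9%. This was the brightest probe of Ogdh, with a log2 difference of -1.10 (SE 0.33, limma adjusted p = 0.0906). For the second Ogdh probe WT monosome 1 (11.56) lay above both Het arrays (11.29 and 11.20) and WT monosome 2 (10.78) below them. The methods' t-test also called 0. The remaining differences ran from -0.16 for Idh3b to 0.80 for Suclg1 with standard errors of 0.29 to 0.49. The genotypes did not overlap for 3 genes that were higher in Het (Idh3a, Suclg1 and Fh1) and 1 that was lower (Ogdh), whereas 26.8% and 23.7% of tested probes had these patterns. The difference of the brightest Ogdh probe passed with normexp background correction (-1.08, limma adjusted p = 0.0446) and on the authors' table (-0.99, limma adjusted p = 0.0470). Within slide 2 it was -1.51, but that slide held 1 monosome array per genotype, WT monosome 2 and Het monosome 3. It was -0.64 without WT monosome 2. Leaving out the other WT monosome array set the Het arrays against WT monosome 2 alone. The other groups supply the spread in that fit, and 32.2% of tested probes were called higher in it and 21.1% lower. Among them Cs (1.32), Idh3a (0.94) and Fh1 (1.41) were called higher in Het and Ogdh (-1.55) lower.

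The comparison for which the genes were chosen is described next, in values only. Loading was higher in Het than in WT for all 9 genes, with a median difference of 0.87 log2 units, against 0.16 over all tested probes. Suclg1 was at the top. Its loading was -2.04, -0.94 and -0.94 in WT mice 1 to 3 and -0.17, -0.05 and 0.63 in Het mice 1 to 3, a mean difference of 1.45. The isocitrate dehydrogenase subunits were close to one another, at 0.93 for Idh3g, 0.91 for Idh3b and 0.87 for Idh3a. Idh3a had -0.54, -0.71 and -0.05 in WT and 0.15, 0.47 and 0.68 in Het. The 0 point of loading is set by the normalization, and with 75th percentile scaling the mean loading of Idh3a was -0.41. Fh1 had 0.32, -1.36 and 0.11 in WT and 0.49, 0.53 and 0.69 in Het, a difference of 0.88 that was mainly set by WT mouse 2. Cs (0.66), Dlst (0.47), Mdh2 (0.30) and the brightest Ogdh probe (0.09) had smaller differences. The second Ogdh probe gave 0.64, a value mainly set by WT mouse 2. Its loading was 0.64, -0.85 and 0.70 in WT and 0.56, 0.99 and 0.85 in Het. For 6 of 9 genes, all but Cs, Ogdh and Mdh2, the genotypes did not overlap, a pattern of 13.4% of tested probes in this direction, and nothing is read from that count because the rule used it.

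**Figure D4:**
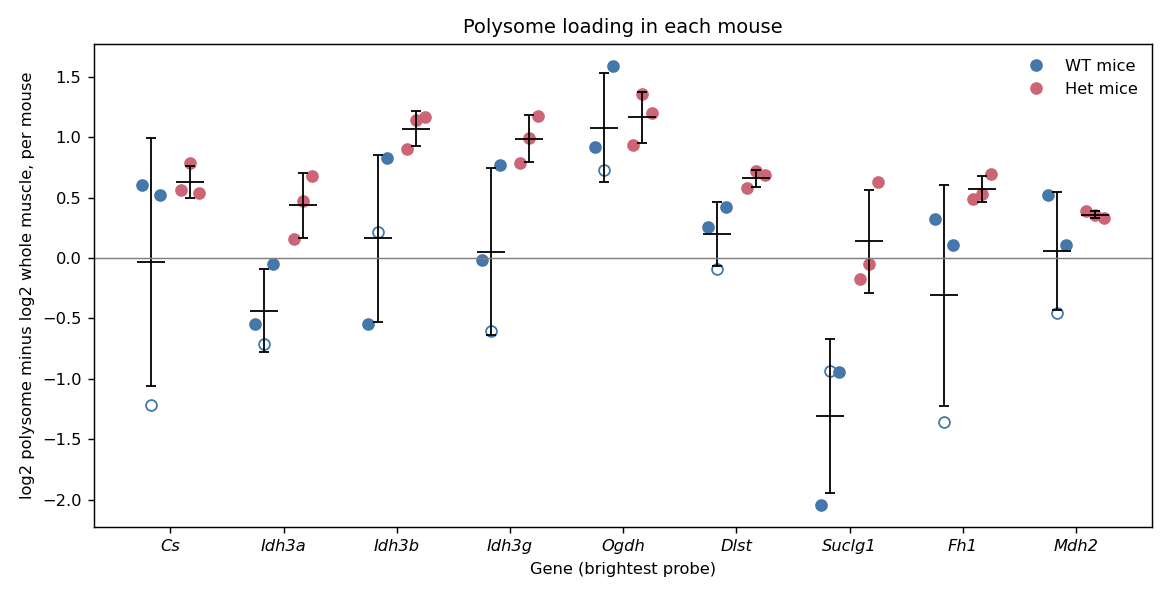
Polysome loading of each gene (log2 polysome minus log2 whole muscle, vertical axis) in single mice, blue WT and red Het, with WT mouse 2 as open points and bars giving mean ± SD (n = 3). Het mice lie close together, with SD from 0.029 for Mdh2 to 0.43 for Suclg1, and WT mice spread more widely, up to an SD of 1.03 for Cs. For Cs that spread is set by WT mouse 2 (-1.21, against 0.60 and 0.52).

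Most of the difference lay in the polysome arrays. Polysome signal was higher in Het for 8 of 9 genes, with a median of 0.84 (0.56 without WT polysome 2), and for those 8 the genotypes did not overlap, as for 12.9% of tested probes. Ogdh was the exception (-0.01 for its brightest probe and 0.55 for the second). The value of the second was mainly set by WT polysome 2, at 11.16 against 12.44 and 12.47 for the other WT polysome arrays. In whole muscle the median difference was 0.05, the range ran from -0.09 for Idh3g to 0.17 for Cs, and the genotypes overlapped for all 9, where 5.28% of tested probes were higher and 8.31% lower without overlap. The spread of loading between WT mice was wider than between Het mice for all 9 genes, and single mice set much of it. For Cs WT mouse 2 had -1.21, against 0.60 and 0.52 in WT mice 1 and 3. For Suclg1 WT mouse 1 was apart (-2.04, against -0.94 and -0.94). WT mice had median loadings over the 9 genes of 0.25, -0.60 and 0.43, and Het mice of 0.57, 0.72 and 0.69.

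Several measures moved with this description. Leaving out WT mouse 2 reduced the median loading difference from 0.87 to 0.36, with 8 of 9 genes still above 0. Suclg1 (1.63), Idh3b (0.93), Idh3a (0.73) and Idh3g (0.61) kept the larger differences without that mouse, whereas Cs (0.07), Mdh2 (0.05) and Ogdh (-0.09) were near 0. The polysome array was dimmer than the whole-muscle array in WT mice 1 and 2 (log2 brightness differences of -1.46 and -1.24) and brighter in WT mouse 3 (0.64), whereas it was brighter in all Het mice (1.16, 2.98 and 1.73). With this brightness difference as a term the median was 0.14, with Suclg1 highest (0.97), Fh1 next (0.49) and Ogdh lowest (-0.73). Idh3b (-0.05), Idh3g (0.04) and Cs (-0.02) were near 0 in that fit. The polysome and whole-muscle arrays of each mouse were on different slides, with the polysome array on slide 1 for 2 of 3 WT mice and 1 of 3 Het mice. With slide as a term the median was 0.70. Taken between unpaired arrays of one slide it was 0.74 on slide 1 and 0.31 on slide 2. Blood-cell markers had a summed polysome signal of log2 14.30 to 15.31 in WT and 13.27 to 13.72 in Het, fibroblast markers 15.01 to 15.12 and 14.39 to 14.66, and fast-fibre markers 19.21 to 19.28 and 19.48 to 19.52, none of which overlapped. Gene by gene, 2 of 4 blood, 1 of 3 fibroblast and 1 of 5 fast-fibre markers did not overlap in these directions, and Slc4a1 of the blood list differed by only -0.04. The summed polysome signals of slow-fibre, adipocyte and endothelium markers overlapped between genotypes. Of the immune markers, Cd68, Lyz2 and Cd74 were well above background on all polysome arrays and Ptprc on none of them, and their summed polysome signal overlapped (9.77 to 11.56 in WT and 9.20 to 10.48 in Het). Cd68 differed by -1.72 between Het and WT polysomes, Lyz2 by -0.94 and Cd74 by -0.56. The part of the brightness, the slides and these other cells in the difference was not tested beyond these values.

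**Figure D5:**
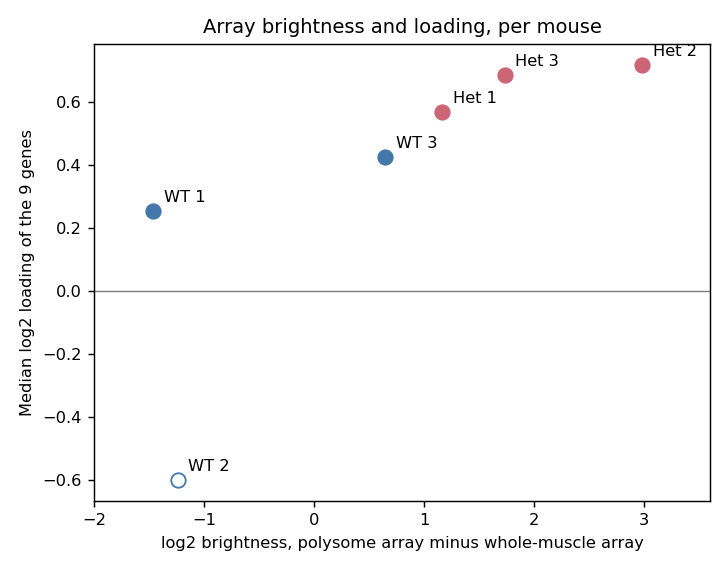
Median log2 polysome loading of the 9 genes in each mouse (vertical axis) against the log2 brightness of its polysome array minus that of its whole-muscle array (horizontal axis). Points are mice (blue WT, red Het, open WT mouse 2), and all 3 Het mice have both the larger brightness difference and the larger median loading.

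Further genes of the cycle were taken as a list of 8 (Idh2, Sucla2, Suclg2, Sdha to Sdhd and Dld). Its members encode the NADP-dependent isocitrate dehydrogenase, the beta subunits of succinyl-CoA ligase, the subunits of succinate dehydrogenase and the dihydrolipoamide dehydrogenase of the 2-oxoglutarate complex. Of these, 7 were tested, since the Idh2 probe had no value on 1 array. All 7 had a polysome signal above the monosome signal, 6 of them called, against 16.9% of tested probes. The differences ran from 0.64 for Sdhc (limma adjusted p = 0.0723) to 1.91 for Sucla2 (limma adjusted p = 0.00681), with a median of 1.05. The other called genes were Sdha (1.31), Dld (1.30), Sdhd (1.05), Sdhb (0.77) and Suclg2. In monosomes against whole muscle 4 of 7 were called lower, against 14.2% of tested probes. They were Dld (-1.94), Sucla2 (-1.56), Sdha (-1.10) and Suclg2, and Sdhc was at the top of the list (-0.13, limma adjusted p = 0.708). Suclg2 was not well above background on either WT monosome array, so that its monosome differences are not given, although the counts and medians include it. Without the 2 arrays that stand apart 7 of 7 were called higher in polysomes and 5 of 7 lower in monosomes, with 22.5% and 17.1% of tested probes. For mean loading, 1 of 7 was called, Sdhd (0.72, limma adjusted p = 0.0181), close to the 13.1% of tested probes called higher. Suclg2 was the lowest (-0.87, limma adjusted p = 0.0773). Without the 2 arrays 3 of 7 were called higher, with 14.3% of tested probes. The loading difference between genotypes was above 0 for 6 of 7, with a median of 0.77, from -0.05 for Sdhb to 1.97 for Suclg2, and the median was 0.54 without those arrays.

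A second list held 11 cytosolic counterparts and side reactions of the cycle, of which 10 were tested. Polysome signal was above monosome signal for 10 of 10 and called for 5, against 16.9% of tested probes. The 5 were Mdh1 (1.97), the cytosolic malate dehydrogenase, Got1 (1.41), Got2 (1.33), Pcx (1.03) and Me3 (0.66), while Me1 was the lowest (0.03, limma adjusted p = 0.976). Aco1 was not well above background on any monosome array, nor Me2 on any Het monosome array. Both are counted in the 10 and in the medians. Without the 2 arrays that stand apart Me1 turned and was called lower in polysomes (-0.84, limma adjusted p = 0.0104), and 5 were called higher. In that fit 14.4% of tested probes were called lower and 22.5% higher. The median difference was 0.75 with all arrays and 0.78 without those 2. In monosomes against whole muscle 4 were called lower, Mdh1 (-1.29), Got1 (-1.17), Pcx (-0.85) and Got2 (-0.82), against 14.2% of tested probes. The lowest value was that of Me1 (-1.30, adjusted p = 0.174). Me2 was highest here and in mean loading, but all Het arrays of whole muscle and monosomes had it not well above background, so that its values are not given. Mean loading was called for 1 of 10, Me1, the cytosolic malic enzyme (-1.27, limma adjusted p = 0.0406), against 11.6% of tested probes called lower. Without the 2 arrays that stand apart 2 were called higher, Mdh1 (0.91) and Got1 (0.51), and 1 lower, Me1 (-0.84). In that fit 14.3% of tested probes were called higher and 13.0% lower. Loading differences between genotypes ran from -0.83 for Aco1 to 0.82 for Got2, with 9 of 10 above 0, or 8 of 10 without the 2 arrays that stand apart. For the monosome comparison of genotypes, 0 of 7 and 0 of 10 genes of the lists were called by limma, against 0.396% of tested probes higher and 0.104% lower in Het.

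As profiles over the 16 arrays, 8 of the 9 genes resembled one another. Each gene's correlation with the mean of the remaining 8 was 0.94 for Mdh2, 0.92 for Dlst, 0.91 for Idh3a, 0.90 for Fh1 and Idh3g, 0.85 for Cs, 0.82 for Idh3b and 0.75 for Suclg1. For the brightest Ogdh probe it was 0.19. These points share arrays, mice and normalization and are given as a description. Among 7786 gene names with a probe well above background on all 16 arrays and outside the lists, the profile most like the mean of the 9 genes was that of Atp6v1e1 (r = 0.992), a subunit of the vacuolar proton pump. It was followed by TC1627788, a transcript without a gene symbol (0.978), Pecr, a peroxisomal enoyl-CoA reductase (0.970), Tmem66, named Saraf in RefSeq (0.964), and Herpud1, a protein of the endoplasmic reticulum (0.961).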

How the data were processed

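The authors labelled RNA with Cy3, hybridised it to Agilent mouse arrays and deposited scanner files made with Feature Extraction 11.0.1.1. Per the file headers these hold spot intensities, and the processed intensity is background-subtracted. The authors' table holds log2 values that ranked as the raw median signal of each array did (Spearman 1, medians 5.68 to 5.70), and was used as an alternative. Of 62976 spots, 59305 were not controls, with no saturation. Non-uniform spots and population outliers, by the scanner marks, were dropped, spots of a probe were averaged, and log2 processed signals were quantile-normalized over 16 arrays, the transformation the methods name. Probes with a missing value were left out (67). Fits used limma 3.58.1 (R 4.3.3), and p-values were adjusted over 20219 probes by the Benjamini-Hochberg method. The fits were tested on simulated data first. Group fits had 6 groups, and loading fits had 6 within-mouse ratios. Of the 12 member probes, 11 matched a RefSeq accession. Positions are those of the files, on mm9. The brightest probe stood for a gene. Named besides the 9 genes were Eif6, the highest, lowest and called genes of each list, and the 5 most similar profiles. The genes and lists were chosen with earlier results of these data known, and 1 gene of the lists is not reported here. The design text gives every kind of RNA from each mouse, which pairs arrays. Deviations of paired whole-muscle and polysome arrays correlated at 0.046 to 0.48. Whether monosome samples carried particles besides single ribosomes is not given in the sources used here. Array numbers limit precision, and p-values measure spread between these mice. Plots used Python 3.11.15 with numpy 2.4.6, pandas 2.3.3 and matplotlib 3.10.9. Alternatives were 75th percentile scaling, normexp background, filters, slide and brightness terms, blocks, left-out mice and the methods' t-test.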

Additional observations from a re-analysis of the deposited data

Results flagged for a closer look

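Polysome loading of Idh3a was below 0 in all 3 WT mice and above 0 in all 3 Het mice, a mean difference of 0.87 log2 units. The 0 point is set by the normalization. With 75th percentile scaling the mean loading of Idh3a was -0.41 and the difference 0.69, so the split at 0 depends on the scale. The share of all probes with such a split was not counted. The second Fh1 probe (A_51_P359333) showed the same split, with -0.06, -1.51 and -0.20 in WT, 0.35, 0.41 and 0.49 in Het and a difference of 1.005. For the brightest Fh1 probe WT mice 1 and 3 were above 0. These differences were not tested, because the genes were chosen on this contrast.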

How the results depend on the processing

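The counts of called genes for polysome against monosome (9) and monosome against whole muscle (7) were both 0 within slide 1, where a group held 1 or 2 arrays and 0 probes were called in that direction. The first count was 5 with the methods' t-test after Benjamini-Hochberg adjustment. Leaving out single mice gave 5 to 9 and 2 to 8. The count of genes with higher mean loading (1, with 13.1% of probes) was 4 with normexp background (15.4%), 4 on the authors' table (15.0%), 4 with probes well above background on all arrays (27.2%), 4 without WT polysome 2 and WT monosome 2 (14.3%, chosen after seeing the data), 0 within slide 1 and 0 within slide 2, and 1 to 4 without single mice. Monosome signal was called higher in Het for 0 genes, and for 0 to 3 without single mice, and called lower for Ogdh without WT mouse 1. The median loading difference (0.87) was 0.14 with array brightness as a term, 0.31 within slide 2, 0.36 without WT polysome 2 and WT monosome 2, and 0.36 to 1.06 without single mice. The median polysome difference (0.84) was 0.45 within slide 2, and the median whole-muscle difference (0.05) was 0.28 with brightness as a term. The cause was not tested.

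Some signs turned. Mean loading was -0.043 for Cs, -0.41 for Idh3a and -0.22 for Fh1 with 75th percentile scaling, where the median of all probes was 0.04 against 0.10. For Idh3a it was -0.034 with normexp background, -0.053 on the authors' table, -0.20 within slide 1, -0.14 with the brightness term and -0.096 to 0.071 without single mice, and for Fh1 -0.035 within slide 1 and -0.028 to 0.39 without single mice. The monosome difference between genotypes turned within slide 1 for Cs (-0.035), Idh3b (0.34) and Dlst (-0.22), within slide 2 for Idh3g (-0.064) and Mdh2 (-0.092), for Idh3b with 75th percentile scaling (0.13), for Idh3g with the brightness term (-0.057), and without WT polysome 2 and WT monosome 2 for Cs (-0.032), Idh3b (0.48) and Dlst (-0.29). Without single mice it ran from -0.032 to 1.32 for Cs, -0.80 to 0.48 for Idh3b, -0.033 to 0.13 for Idh3g, -0.29 to 0.67 for Dlst and -0.095 to 0.32 for Mdh2. Ogdh in monosomes against whole muscle was -0.27 with the mean over its probes. The loading difference turned for Cs (-0.019 within slide 2, -0.017 with the brightness term), Idh3b (-0.047 with that term), Mdh2 (-0.021 within slide 2) and Ogdh (in 7 alternatives, down to -0.73). None of these alternatives turned a polysome against monosome difference.

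With mouse as a replicate block the counts were 9 for polysome against monosome (23.1% of probes) and 8 for monosome against whole muscle (19.7%). Without the pairing (no replicate block) the mean loading count was 1 and the median loading difference 0.87. A replicate block by number pairs no mice across genotypes, and left the medians at 0.84 in polysomes and 0.05 in whole muscle. No paired analysis was possible between genotypes because WT and Het samples are different mice.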
